A study of Mus musculus with 16 samples.

Results

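The type I interferon response genes are the mRNAs that cells switch on after sensing interferon alpha or beta. A fixed set of 41 of them was followed through whole skin of mice lacking the RNase MCPIP1 (gene Zc3h12a) in keratinocytes, in myeloid cells, in both or in neither. They are listed by name, and the rule uses no measured value, though the list was chosen with earlier results of these data known. Of the 41, 37 were matched by symbol to a target among the 23930 in the count files, of which 1368 had no symbol. Of the 37, 35 had enough reads to be tested, of 13633 genes tested in all. Isg15, Ifit3, Ifitm2 and Ifitm3 were not matched to a target and were not analysed here. Oas1a and Oas1g never exceeded 2 reads in any library, and since the Oas1 genes are near-identical copies, how reads were shared out among them is uncertain.

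All 16 mice carried Zc3h12a with loxP sites on both alleles and were 12 weeks old. Control mice had no Cre (n = 4). EKO mice carried Krt14Cre, which is active in basal keratinocytes and their descendants (n = 4), MKO mice carried LysMCre, which is active in macrophages and neutrophils (n = 4), and EMdKO mice carried both (n = 4). RNA came from whole snap-frozen skin, so hair follicle, gland, dermis, fat and muscle were measured together with the cells that lost the gene, and a larger number of cells of a type cannot be told apart from more RNA per cell. The labels name each library as a separate mouse, so the p-values given here measure the spread between mice. Libraries held 6962474 to 12086327 reads on target, and tested members had between 5 and 2529 reads in a library. Zc3h12a itself read 19.4 to 30.3 CPM (a read count scaled to a common library size by TMM) in control skin and 7.07 to 11.7 CPM with Krt14Cre, 17.1 to 35.0 CPM with LysMCre and 4.41 to 5.71 CPM with both. It was lower in EMdKO than in control skin (adjusted p = 0.000448, edgeR) and gave an adjusted p of 0.082 in EKO, and its MKO values overlapped those of control skin, so it is no check of that label.

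Type I interferons bind the receptor pair IFNAR1 and IFNAR2, whose kinases JAK1 and TYK2 activate transcription factors by phosphorylation. STAT2 and IRF9 act in the complex ISGF3, which binds a purine-rich promoter motif called the interferon-stimulated response element and switches on antiviral effectors together with the sensors and transcription factors of the pathway itself. In skin the response is known from viral infection, wounding and cutaneous lupus, with keratinocytes, macrophages and plasmacytoid dendritic cells as sources of the ligand.

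The promoter sequences show a feature, not used to choose them, that some of the members share. The core of that response element, GAAA followed after any 2 bases by a second GAAA, was searched on both strands (TTTC, 2 bases and TTTC on the other) in windows of 300 bases, 250 before and 50 after each RefSeq transcription start (GRCm38.p6). A window was given for 27 of the 37 members matched to a target. Of the 27, 12 held the motif, 44.4%, against 3.99% of the 27025 genes with a window and 3.44% of all 32851 windows. In 6 members every copy of the motif in a window, with 15 bases on either side, lay wholly before a start. In the remaining members with the motif, Ddx58, Ddx60, Eif2ak2, Ifih1, Oas1a and Oas1g, the stretch lay partly or wholly past the start and is not printed. Ddx60, Oas1a and Oas1g held 2 copies each. The stretches of the 6 are printed 5′ to 3′ along the gene's strand, with the motif letters in capitals.
Bst2 (chr8:71537572-71537617, minus strand): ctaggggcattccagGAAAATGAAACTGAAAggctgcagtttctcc
Ifit1 (chr19:34640770-34640828, plus strand): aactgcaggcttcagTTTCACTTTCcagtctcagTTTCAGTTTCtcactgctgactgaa
Oas3 (chr5:120777710-120777749, minus strand): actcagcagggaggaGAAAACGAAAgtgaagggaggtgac
Rsad2 (chr12:26456548-26456587, minus strand): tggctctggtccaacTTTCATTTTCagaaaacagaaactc
Stat2 (chr10:128270261-128270300, plus strand): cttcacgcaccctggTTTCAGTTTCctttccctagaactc
Trim30a (chr7:104465205-104465244, minus strand): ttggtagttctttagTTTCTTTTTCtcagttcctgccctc
Bst2 holds 2 overlapping copies and Ifit1 2 separate ones, and the first motif letter lies between 36 bases (Trim30a) and 222 bases (Stat2) before the start. A match is a description of the letters in the window, not a measured binding site, and the count files name no genome build of their own.

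One library stood apart before any comparison between groups. Control mouse 2 had the highest value of all 16 libraries in 22 of the 35 tested members, as it did in 10.9% of all genes tested. It lay above each of the other 3 controls in 32 of 35 members, against 26.6% of all genes. The mean log2 CPM over the 35 members was 3.43, 5.16, 3.68 and 3.29 in control mice 1 to 4, 3.38, 4.49, 4.12 and 3.82 in the EKO mice, 4.12, 3.74, 3.38 and 3.55 in the MKO mice and 3.65, 3.83, 3.90 and 3.39 in the EMdKO mice. Averaged over mice this was 3.89 ± 0.86 (SD, n = 4) without Cre, 3.95 ± 0.47 with Krt14Cre, 3.70 ± 0.32 with LysMCre and 3.69 ± 0.23 with both, so the groups lay closer together than the mice within the control group. With control mouse 2 set aside, EKO mouse 2 was highest in 20 of the 35 members, and the share of all genes for that setting is not given here. Over all 16 libraries EKO mouse 2 was highest in 6 members and in 6.33% of all genes.

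**Figure D1:**
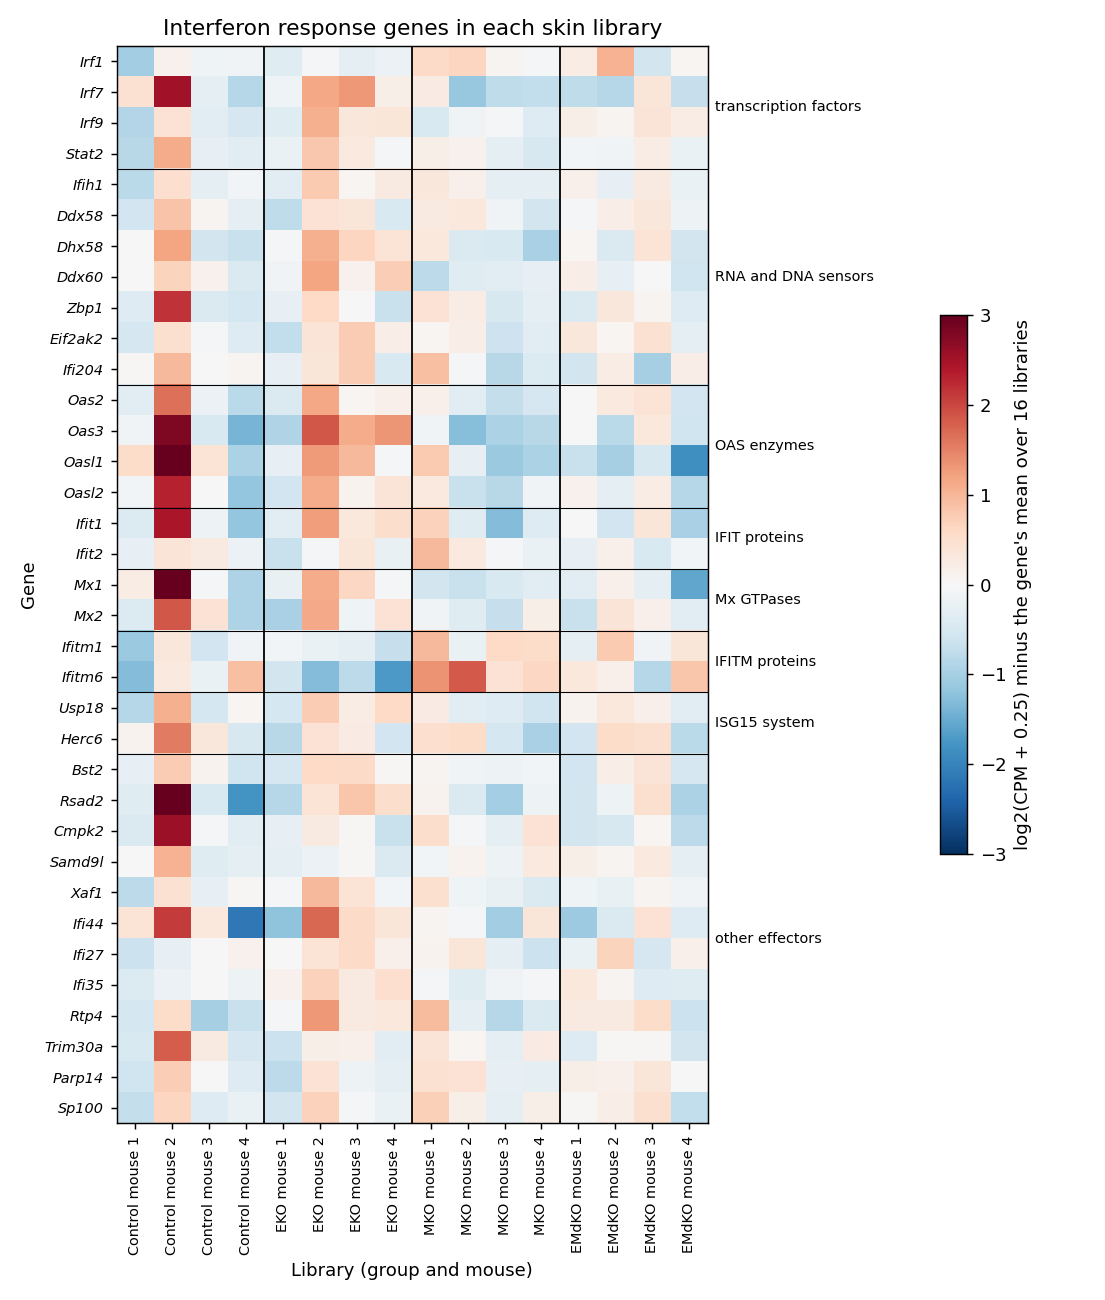
Level of the 35 tested interferon response genes (rows, by role) in the 16 skin libraries (columns, by group), as log2(CPM + 0.25) minus the gene's mean over the libraries, with values beyond 3 drawn in the end colour. Control mouse 2 is dark red across most rows, followed by EKO mouse 2, and no group as a whole stands out.

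The spread between mice of one genotype was also read over the members. The median within-group SD on the log2 scale was 0.83 over the members and 0.37 over all genes for controls. The same pair of values was 0.57 and 0.27 for EKO, 0.40 and 0.30 for MKO, and 0.48 and 0.28 for EMdKO. Without control mouse 2 the control values were 0.38 and 0.32. Within EKO, mouse 2 was the highest in 26 members and mouse 1 the lowest in 28, as they were in 21.4% and 31.6% of all genes. Within MKO, mouse 1 was the highest in 23 (33.2% of all genes, with the lowest value in a further 36.1%). Within EMdKO, mouse 3 was the highest in 22 and mouse 4 the lowest in 19 (30.7% and 22.6%). In each genotype, then, a single mouse was the highest in more than 20 of the 35 members.

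Across the 3 comparisons with control, no member passed the test (edgeR quasi-likelihood, Benjamini-Hochberg adjusted over all genes). In EKO against control 0 of 35 members were called, beside 0% of all genes. In MKO against control 0 were called beside 0.0293% of all genes, and in EMdKO against control 0 beside 0.0293%. The same was true of EMdKO against EKO (0.0147% of all genes called), EMdKO against MKO (0.00734%), the interaction of both losses (0%), the mean effect of Krt14Cre (0.924%) and the mean effect of LysMCre (0.044%). DESeq2, run on the same design, called 1 member in EMdKO against control, 1 for the mean effect of Krt14Cre and 2 for the mean effect of LysMCre, all of them Oasl1 or Ifitm6, and 0 in the other 5 comparisons.

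In EKO against control 15 members had a positive and 20 a negative log2 fold change, with a median of -0.10 over the members and -0.03 over all genes. At an unadjusted p under 0.05, 2 members were higher and 3 lower, beside 3.28% and 3.62% of all genes. In MKO against control 12 were positive, the median was -0.30 (0.00 over all genes), and 2 were higher and 5 lower at that level, beside 3.17% and 6.41%. In EMdKO against control 11 were positive, the median was -0.24 (-0.02 over all genes), and 0 were higher and 5 lower, beside 3.51% and 4.65%. These 3 comparisons share the same 4 controls, control mouse 2 among them, and cannot be read as independent.

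The transcription factors of the pathway gave the first example. Irf7 stood at 27.1, 115, 16.3 and 10.9 CPM in the 4 control mice, in order of number, and at 18.2, 44.6, 49.03 and 22.5 CPM in EKO mice. In MKO skin it was 23.4, 8.85, 11.6 and 11.7 CPM, and in EMdKO skin 11.6, 10.8, 25.4 and 12.1 CPM. IRF7 is the factor that amplifies interferon alpha production. The control range held every EKO value, while MKO mouse 2 and EMdKO mouse 2 lay under it. Control mouse 2 was at 7.10 times the median of the other controls, and EMdKO mouse 3 was at more than 2 times any other EMdKO mouse. The log2 fold change was -0.33 ± 0.59 (approximate standard error, here and below) in EKO, -1.61 ± 0.61 in MKO (adjusted p = 0.399, edgeR) and -1.50 ± 0.61 in EMdKO. Without control mouse 2 the sign turned in EKO (0.89 ± 0.44) and the others shrank to -0.39 ± 0.44 and -0.27 ± 0.44.

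Irf9 encodes the DNA-binding subunit of ISGF3. For Irf9 the controls gave 11.3, 28.6, 16.8 and 14.7 CPM and the EKO mice 16.4, 44.6, 26.9 and 27.1 CPM. Values were 15.4, 19.7, 20.3 and 15.9 CPM with LysMCre alone and 23.7, 22.3, 27.5 and 24.5 CPM with both Cre genes. EKO mouse 2 was the highest of the 16, and EKO mice 1, 3 and 4 lay inside the control range. The change was 0.69 ± 0.28 in EKO against control (adjusted p = 0.680, edgeR) and 0.57 ± 0.20 for the mean effect of Krt14Cre (adjusted p = 0.267). In EMdKO against MKO it was 0.46 ± 0.28, and Irf9 was the 1 member whose EMdKO values all lay above the MKO values, as 3.71% of all genes did. No member lay wholly below, beside 2.28% of all genes.

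Irf1 encodes a factor that interferon gamma induces as well. Irf1 read 26.9, 60.6, 50.9 and 51.9 CPM in control mice 1 to 4 and 42.8, 53.9, 45.3 and 48.9 CPM in the EKO mice. It reached 82.1, 86.7, 58.6 and 53.3 CPM in MKO and 64.7, 115, 37.6 and 58.2 CPM in EMdKO mice. The groups overlapped, with EMdKO mouse 2 the highest and control mouse 1 the lowest. The mean effect of LysMCre was 0.54 ± 0.21 (adjusted p = 0.283, edgeR). Stat2, which carries the transactivation domain of ISGF3, ranged from 25.1 to 97.4 CPM in controls and from 38.8 to 78.4, 31.9 to 50.9 and 39.3 to 52.2 CPM in EKO, MKO and EMdKO skin.

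Among the sensors of foreign RNA and DNA, 7 were tested and 0 called. Ifih1 encodes MDA5, a sensor of long double-stranded RNA. Ifih1 stood at 19.8, 49.8, 28.4 and 33.2 CPM in the 4 control mice, in order of number, and at 27.6, 60.7, 36.3 and 42.04 CPM in EKO mice. MKO mice 1 to 4 gave 44.5, 38.7, 28.6 and 28.4 CPM, against 39.1, 29.3, 42.3 and 30.7 CPM in EMdKO. All 4 groups overlapped, and its change was 0.35 ± 0.27, 0.10 ± 0.27 and 0.11 ± 0.27 in EKO, MKO and EMdKO against control. These were, with control mouse 2 left out, 0.62 ± 0.27, 0.37 ± 0.26 and 0.38 ± 0.26.

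Ddx60 is a helicase described as a partner of these sensors. For Ddx60 the controls gave 13.1, 20.9, 14.2 and 9.62 CPM and the EKO mice 12.1, 30.2, 14.3 and 21.9 CPM. MKO skin gave 7.52, 10.1, 10.5 and 11.04 CPM and EMdKO skin 14.9, 11.03, 13.1 and 8.51 CPM. The highest values were in EKO mice 2 and 4 and the lowest in MKO mouse 1. The mean effect of LysMCre was -0.64 ± 0.21 (adjusted p = 0.210, edgeR), and EMdKO against EKO gave -0.72 ± 0.29 (adjusted p = 0.706). The other 5 sensors, Ddx58 (RIG-I), Dhx58 (LGP2), Zbp1, Eif2ak2 (PKR) and Ifi204, were each highest among controls in control mouse 2, at 1.87 to 6.15 times the median of the other controls.

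OAS enzymes make the oligoadenylate that activates RNase L, and the 4 tested genes of the family, Oas2, Oas3 and the OAS-like Oasl1 and Oasl2, were highest in control mouse 2. Oasl2 read 69.1, 364, 72.9 and 32.5 CPM in control mice 1 to 4 and 49.3, 159, 78.6 and 95.9 CPM in the EKO mice. In MKO skin it was 90.8, 46.1, 41.1 and 68.8 CPM, and in EMdKO skin 80.1, 60.9, 86.3 and 40.7 CPM. Control mouse 2 was at 5.26 times the median of the other controls, and control mouse 4 was the lowest of the 16. The fitted changes of Oasl2 were -0.49 ± 0.57, -1.12 ± 0.57 and -1.0 ± 0.57 in EKO, MKO and EMdKO. All 3 had a positive sign once control mouse 2 was left out (0.72 ± 0.40, 0.08 ± 0.40 and 0.20 ± 0.40).

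Oasl1, described as a translational repressor of Irf7, had the smallest p of the members in EMdKO against control. Oasl1 stood at 4.33, 35.7, 3.92 and 1.37 CPM in the 4 control mice, in order of number, and at 2.37, 7.41, 5.95 and 2.76 CPM in EKO mice. Values were 5.17, 2.40, 1.19 and 1.38 CPM with LysMCre alone and 1.74, 1.33, 1.998 and 0.630 CPM with both Cre genes. Each EMdKO value lay below each EKO value, the 1 member of 35 for which this held, as it did for 2.71% of all genes. No member of the 35 lay wholly above, beside 2.86% of all genes.

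The fitted change of Oasl1 was -2.95 ± 0.83 in EMdKO against control (adjusted p = 0.358, edgeR), -2.17 ± 0.80 in MKO and -1.92 ± 0.58 for the mean effect of LysMCre (adjusted p = 0.190). DESeq2 gave an adjusted p of 0.0195 for EMdKO and 0.0217 for the mean effect of LysMCre. Without control mouse 2 the EMdKO change was -1.16 ± 0.57 (adjusted p = 0.699, edgeR), the MKO change -0.37 ± 0.57 and the LysMCre effect -1.03 ± 0.39. Its counts were low, at 6 to 248 reads a library.

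Oas2 and Oas3 were likewise highest in control mouse 2, followed by EKO mouse 2. Oas3 had 65.9 CPM in control mouse 2 and 3.37 to 8.67 CPM in the other controls, and 4.85, 34.3, 20.3 and 23.8 CPM in EKO mice 1 to 4. Its change in EKO against control was -0.01 ± 0.72 with all controls and 1.73 ± 0.53 without control mouse 2.

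IFIT1 binds viral RNA that lacks the host's cap methylation. For Ifit1 the controls gave 19.6, 144, 23.5 and 11.5 CPM and the EKO mice 20.95, 62.3, 32.5 and 37.97 CPM. It reached 42.5, 20.2, 10.4 and 19.95 CPM in MKO and 26.1, 17.4, 33.7 and 13.1 CPM in EMdKO mice. Control mouse 2 was again the highest, at 7.35 times the median of the other controls, and EKO mouse 2 followed. The changes were -0.36 ± 0.64, -1.09 ± 0.65 and -1.13 ± 0.65 in EKO, MKO and EMdKO (adjusted p = 0.914, 0.620 and 0.709, edgeR). The sign turned in all 3 without control mouse 2, to 1.08 ± 0.46, 0.35 ± 0.46 and 0.31 ± 0.46.

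Ifit2 spanned a narrower range. Ifit2 read 4.33, 6.90, 6.35 and 4.62 CPM in control mice 1 to 4 and 3.20, 4.97, 6.80 and 4.47 CPM in the EKO mice. MKO mice 1 to 4 gave 10.5, 6.45, 5.005 and 4.52 CPM, against 4.39, 5.82, 3.71 and 4.94 CPM in EMdKO. MKO mouse 1 was the highest of the 16, and its change was -0.48 ± 0.29 in EMdKO against MKO (adjusted p = 0.764, edgeR).

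The Mx GTPases trap viral nucleoproteins. Mx1 stood at 4.21, 36.7, 3.46 and 1.75 CPM in the 4 control mice, in order of number, and at 2.99, 8.03, 5.58 and 3.42 CPM in EKO mice. MKO skin gave 2.35, 2.15, 2.50 and 2.76 CPM and EMdKO skin 2.82, 3.998, 2.85 and 1.05 CPM. Control mouse 2 was at 10.6 times the median of the other controls, and the MKO values, the tightest of any group, sat inside the range of the other 3 controls. The change was -2.22 ± 0.75 in MKO (adjusted p = 0.335, edgeR) and -2.09 ± 0.73 in EMdKO. Without control mouse 2 these were -0.36 ± 0.44 and -0.23 ± 0.43.

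The IFITM proteins restrict virus entry at membranes, and Ifitm6 had the smallest p of the 35 members for both mean Cre effects. For Ifitm6 the controls gave 12.8, 39.3, 27.9 and 59.7 CPM and the EKO mice 21.6, 12.7, 18.4 and 9.59 CPM. In MKO skin it was 81.5, 115, 43.02 and 49.3 CPM, and in EMdKO skin 39.7, 35.6, 17.6 and 57.2 CPM. Control mouse 4, not mouse 2, was the highest control, EKO mouse 4 was the lowest of all, and MKO mice 1 and 2 were the highest of the 16. The mean effect of LysMCre was 1.16 ± 0.31 (adjusted p = 0.148, edgeR), and that of Krt14Cre -1.05 ± 0.31 (adjusted p = 0.167).

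By pairs of groups Ifitm6 gave -1.16 ± 0.45 in EKO and 1.05 ± 0.44 in MKO against control, and 1.27 ± 0.45 in EMdKO against EKO. In EMdKO against control it was 0.10 ± 0.44, and 0.17 ± 0.49 without control mouse 2. DESeq2 called both mean effects (adjusted p = 0.0172 for LysMCre and 0.0281 for Krt14Cre), and edgeR called the Krt14Cre effect when control mouse 1 was left out, at -1.19 (adjusted p = 0.0444). Without control mouse 2 the effects were 1.19 ± 0.34 and -1.02 ± 0.33 (edgeR adjusted p = 0.166 and 0.260).

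Macrophage markers were read beside Ifitm6. Adgre1, which encodes the macrophage marker F4/80, had a mean effect of LysMCre of 0.91 ± 0.18 (adjusted p = 0.0702, edgeR), with 11.9 to 20.6 CPM in controls, 10.9 to 24.03 in EKO, 26.3 to 39.7 in MKO and 23.4 to 41.7 in EMdKO mice. DESeq2 called it, edgeR did not. The list did not move together, as the mean effect of LysMCre was positive in 5 of the 9 tested markers, with Cd163 at 0.46 ± 0.17 and, the other way, Cd68 at -0.48 ± 0.19 and Lyz2, the gene that carries the LysMCre insertion, at -0.77 ± 0.21 (adjusted p = 0.270, 0.292 and 0.155, edgeR). The summed level of the 10 markers lay between 692 and 1037 CPM in control, 486 and 953 in EKO, 562 and 757 in MKO and 516 and 725 CPM in EMdKO mice, and C1qa had at most 1 read in any library. Lyz2 alone made up 324 to 548 CPM of the sum in controls and 176 to 263 CPM in MKO mice. Their part in the Ifitm6 values was not tested. Ifitm1, with 5 to 25 reads a library, had a LysMCre effect of 0.76 ± 0.28 (adjusted p = 0.260, edgeR).

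In the ISG15 system, Usp18 removes ISG15 from its targets and dampens signalling at IFNAR2. Usp18 read 4.09, 16.1, 5.14 and 7.87 CPM in control mice 1 to 4 and 5.16, 12.9, 8.86 and 11.6 CPM in the EKO mice. Values were 8.94, 6.07, 5.72 and 4.89 CPM with LysMCre alone and 8.20, 9.45, 8.47 and 5.99 CPM with both Cre genes. Control mouse 2 and EKO mice 2 and 4 were the highest, and the change in EKO was 0.22 ± 0.37 with all controls and 0.76 ± 0.32 without control mouse 2. Herc6, the mouse ligase for ISG15, read 5 to 34 reads a library and had control mouse 2 at 3.04 times the median of the other controls.

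The remaining 12 effectors hold both the member with the highest ratio in control mouse 2 and the member with the lowest. Rsad2 stood at 8.17, 221, 7.66 and 2.87 CPM in the 4 control mice, in order of number, and at 5.78, 14.04, 19.1 and 15.4 CPM in EKO mice. It reached 11.4, 7.71, 5.12 and 9.54 CPM in MKO and 7.13, 9.45, 14.8 and 5.36 CPM in EMdKO mice. Rsad2 encodes viperin, which makes a chain-terminating nucleotide, and control mouse 2 was at 28.9 times the median of the other controls, the largest ratio of the 35. The fitted changes were -2.14 ± 0.96, -2.82 ± 0.99 and -2.70 ± 0.98 in EKO, MKO and EMdKO (adjusted p = 0.703, 0.355 and 0.463, edgeR). Without that mouse they were 1.11 ± 0.45, 0.43 ± 0.45 and 0.55 ± 0.45, with the sign turned in all 3.

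Cmpk2, the nucleotide kinase encoded beside Rsad2, was the next in ratio among these effectors, at 7.46. For Cmpk2 the controls gave 21.4, 173, 27.9 and 23.2 CPM and the EKO mice 24.7, 34.98, 29.7 and 18.1 CPM. MKO mice 1 to 4 gave 42.01, 28.1, 24.2 and 39.5 CPM, against 19.7, 20.96, 30.5 and 16.7 CPM in EMdKO. Control mouse 2 lay far above the other 15 mice, which spanned 16.7 to 42.0 CPM. The change was -1.48 ± 0.54 in EMdKO (adjusted p = 0.464, edgeR) and -0.14 ± 0.26 without control mouse 2.

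Ifi35, which binds the factor Nmi, had the smallest p in EKO against control. Ifi35 read 15.1, 17.98, 20.5 and 18.2 CPM in control mice 1 to 4 and 21.99, 32.8, 24.3 and 28.6 CPM in the EKO mice. MKO skin gave 19.8, 15.7, 18.7 and 19.6 CPM and EMdKO skin 25.3, 21.4, 15.3 and 15.8 CPM. Control mouse 2 sat inside the control range, and every EKO value lay above every control value, the only member of 35 to do so, beside 1.03% of all genes. No member lay wholly below, beside 1.23%. The change was 0.58 ± 0.19 in EKO (adjusted p = 0.541, edgeR) and 0.12 ± 0.19 in EMdKO, and EMdKO against EKO gave -0.47 ± 0.19. In MKO no member lay wholly above or below the controls (1.37% and 1.71% of all genes did), nor in EMdKO (2.23% and 1.45%).

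Rtp4 encodes a chaperone that carries receptors to the cell surface. Rtp4 stood at 29.2, 61.9, 20.8 and 26.5 CPM in the 4 control mice, in order of number, and at 40.9, 104, 50.6 and 52.2 CPM in EKO mice. In MKO skin it was 81.5, 34.2, 23.1 and 30.9 CPM, and in EMdKO skin 50.5, 50.9, 61.3 and 26.8 CPM. EKO mice 1, 3 and 4 lay above the 3 lower controls but below control mouse 2. The change in EKO was 0.84 ± 0.42 (adjusted p = 0.736, edgeR) and 1.28 ± 0.42 without control mouse 2.

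Xaf1, a proapoptotic interferon target, completed the named members. For Xaf1 the controls gave 3.47, 8.49, 5.14 and 6.25 CPM and the EKO mice 5.88, 12.3, 8.25 and 5.78 CPM. Values were 8.62, 5.56, 5.24 and 4.52 CPM with LysMCre alone and 5.63, 5.21, 6.47 and 5.67 CPM with both Cre genes. Its interaction term, the departure of EMdKO from the sum of both single losses, was -0.53 ± 0.42 (adjusted p = 0.999, edgeR). Bst2 (tetherin), Samd9l, Ifi44, Ifi27, Trim30a, Parp14 and Sp100 were not called either, and their ratios in control mouse 2 ran from 0.831 (Ifi27) to 4.89 (Trim30a).

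**Figure D2:**
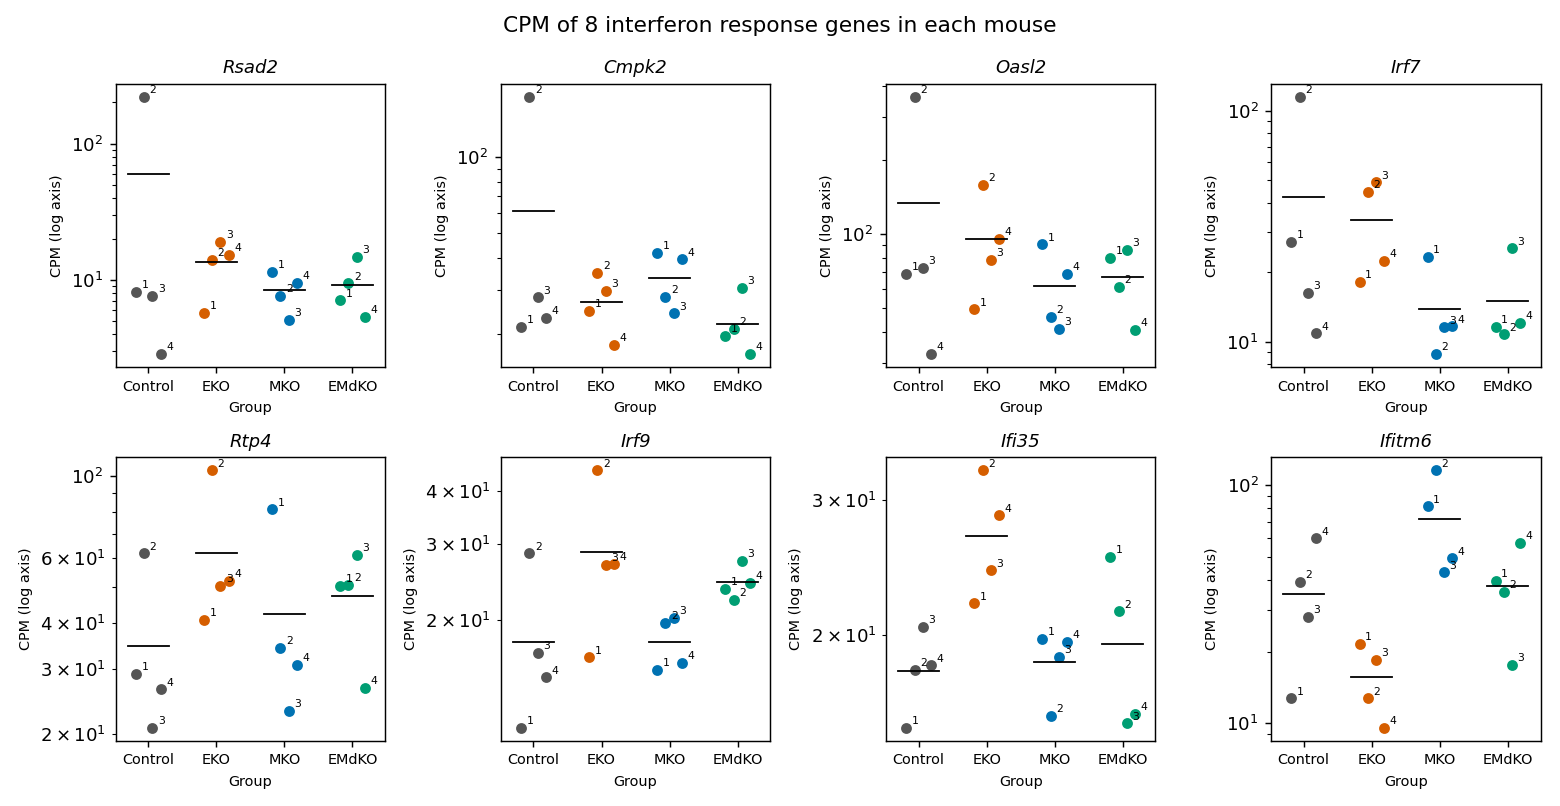
CPM (log axis) of 8 members in each mouse by group, with mouse numbers beside the points and a bar at the mean of 4 mice. Control mouse 2 lies far above the others for Rsad2, Cmpk2, Oasl2 and Irf7. Every EKO mouse lies above every control for Ifi35, as in 1.03% of all genes, and MKO mice 1 and 2 are the highest for Ifitm6.

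The interaction and the mean Cre effects gave no calls among the members either. The interaction term had a positive sign in 18 of 35 members and a median of 0.11, beside 0.01 over all genes, with 0 higher and 0 lower at an unadjusted p under 0.05 (2.22% and 1.19% of all genes). The mean effect of Krt14Cre was positive in 14, with a median of -0.06 (-0.02 over all genes) and 2 higher and 2 lower (5.62% and 5.35%). The mean effect of LysMCre was positive in 7, with a median of -0.26 (0.00 over all genes) and 3 higher and 6 lower (5.49% and 7.64%). EMdKO against EKO was positive in 8, with a median of -0.29 and 1 higher and 2 lower (3.42% and 3.18%), and EMdKO against MKO positive in 22, with a median of 0.04 and 0 higher and 1 lower (4.28% and 3.15%).

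Without control mouse 2 most members had a positive change in each of the 3 comparisons with control. That mouse was singled out here after its values had been seen, by these same genes, so the values without it are a description. In EKO against control 32 of 35 members were then positive (45.8% of all genes), the median was 0.56, and 13 were higher and 1 lower at an unadjusted p under 0.05 (2.5% and 2.66% of all genes). Of those higher, Irf9 had the smallest p (1.01 ± 0.27, edgeR adjusted p = 0.671), followed by Oas3 (1.73 ± 0.53) and Rtp4. In MKO 27 were positive (50% of all genes) with a median of 0.25, and 3 were higher and 0 lower (3.49% and 6.34%). In EMdKO 25 were positive (47.5%) with a median of 0.29, and 3 were higher and 0 lower (3.28% and 4.03%). EKO mouse 2, the highest EKO mouse in 26 members, was kept in these fits. With EKO mouse 2 left out instead and control mouse 2 kept, the EKO median was -0.33 and the EKO change of Irf9 was 0.40.

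The contrasts that do not use the controls kept their counts of positive members without control mouse 2, while the interaction and both mean Cre effects did not. In EMdKO against EKO 8 were positive (50.3% of all genes), and 1 was higher and 7 lower, in place of 2 lower, at an unadjusted p under 0.05 (3.87% and 3.64%). Those lower were Oasl1, Oas3, Irf7, Ddx60, Ifi35, Mx1 and Dhx58. For the genes added, the fold change stayed the same and only the standard error fell. Irf7 went from -1.16 ± 0.60 to -1.16 ± 0.41 and Mx1 from -0.91 ± 0.73 to -0.91 ± 0.39. The mouse was singled out by these same genes, so the larger count is no added evidence. In EMdKO against MKO 22 were positive (48.1%), and 0 were higher and 1 lower (4.36% and 3.53%). The interaction had a positive sign in 3 members (51.6% of all genes) with a median of -0.54, and 0 were higher and 0 lower (2.1% and 1.02%). The mean effect of Krt14Cre was positive in 28 (44.9%) with a median of 0.33, and 9 were higher and 1 lower (5.23% and 4.73%). That of LysMCre was positive in 17 (50.1%) with a median of -0.05, and 3 were higher and 5 lower (6.24% and 8.31%). After adjustment edgeR called 0 members without control mouse 2 in all 8 comparisons, beside 0% of all genes in EKO and in the interaction, 0.00726% in MKO and in EMdKO against MKO, 0.0145% in EMdKO and in EMdKO against EKO, 0.472% for Krt14Cre and 0.0508% for LysMCre.

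**Figure D3:**
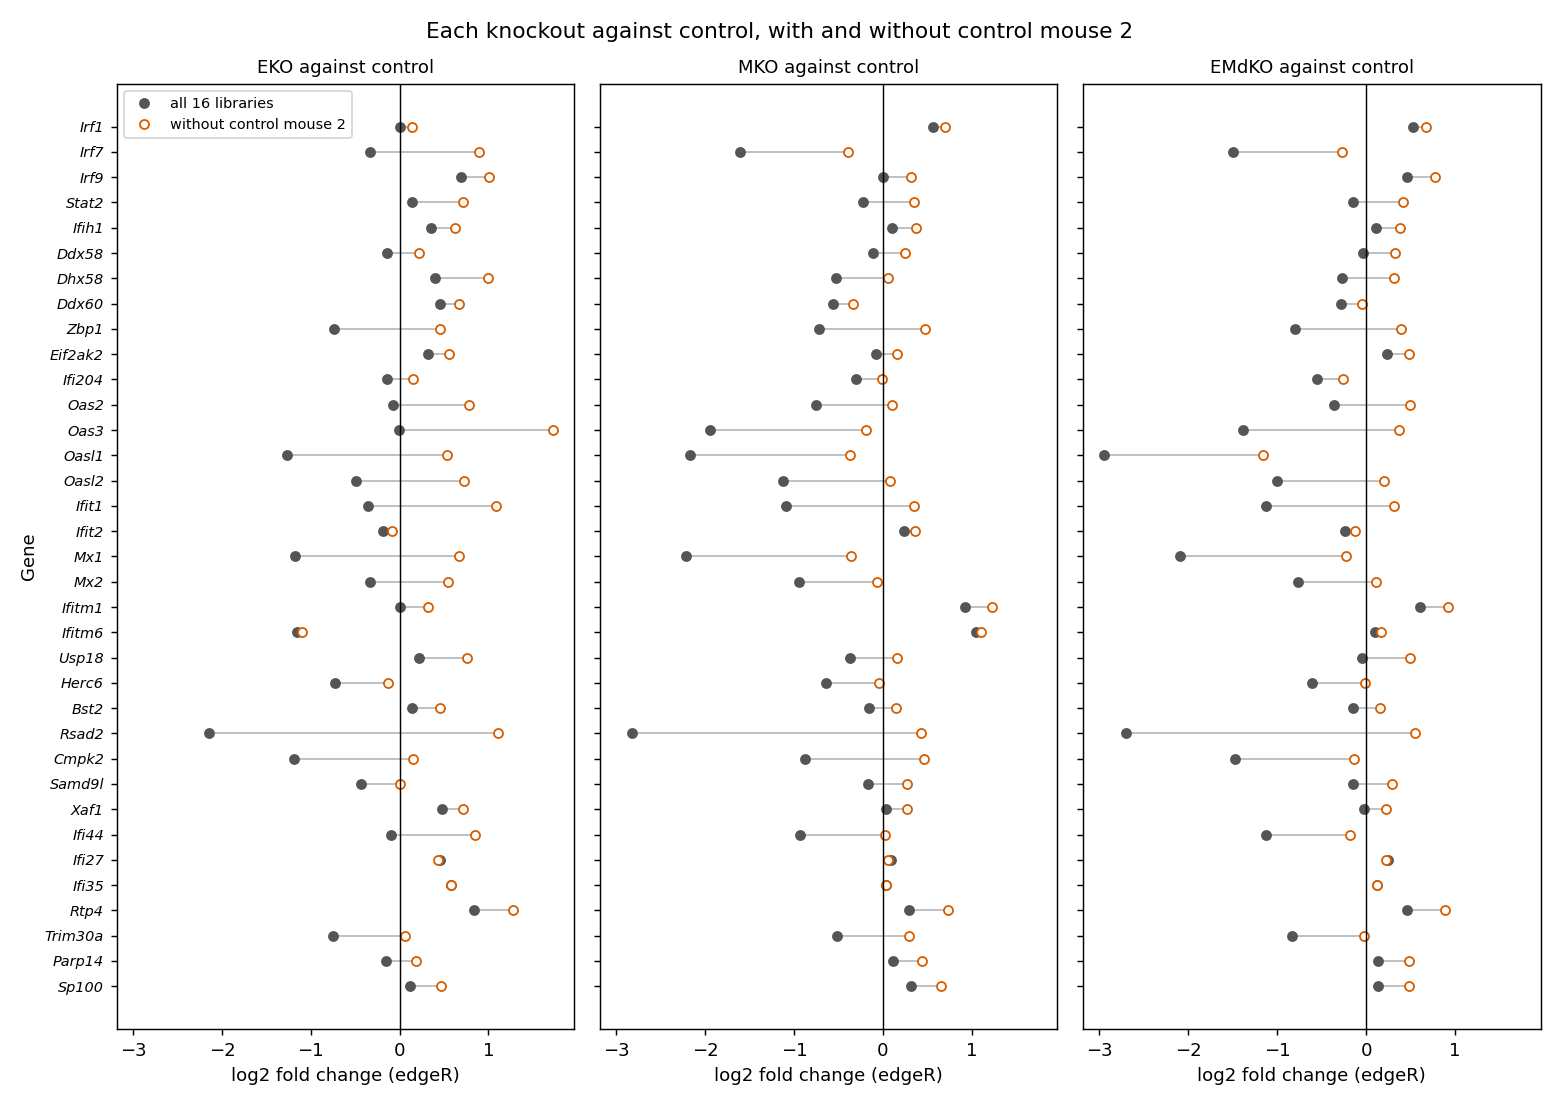
Log2 fold change of each of the 35 members (edgeR) in EKO, MKO and EMdKO against control, with all 16 libraries (filled) and without control mouse 2 (open). In EKO 15 members are positive with all libraries and 32 without that mouse, and Rsad2 moves furthest in all 3 panels.

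The ligands were near the detection limit in every library. The 15 type I and III interferon targets together gave 0 to 6 reads a library, and Ifng gave 0 to 11, where a count of 0 allows up to 3 reads. Control mouse 2, with the highest response genes, had 4 reads of the former and 6 of the latter. The receptors and their kinases, 9 tested, had 0 called, with Ifnar1 at 56.4 ± 5.61, 53.7 ± 5.08, 61.3 ± 2.31 and 59.3 ± 3.33 CPM (mean ± SD, n = 4) in control, EKO, MKO and EMdKO skin. Their ratios in control mouse 2 ran from 0.501 to 1.56 with a median of 1.08, beside 2.59 over the members and 1.00 over all genes.

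Genes that sense nucleic acids upstream of interferon were partly high in control mouse 2. Of 12 tested, 9 lay above every other control there, with a median ratio of 1.68. Tlr9, the endosomal receptor for CpG DNA, read 29.8, 199.9, 34.7 and 24.4 CPM in control mice 1 to 4, and Tlr7, the receptor for single-stranded RNA, 17.1, 62.1, 20.2 and 14.99 CPM. The 6 tested negative regulators had a median ratio of 1.27, and Samhd1, which depletes nucleotides, had the highest at 2.74.

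Interferon gamma targets also stood high in that mouse, with 10 of 14 above every other control and a median ratio of 2.70. Cxcl10, a T cell chemokine induced by both kinds of interferon, read 14.2, 559, 13.1 and 8.37 CPM in control mice 1 to 4, the largest ratio of any pathway gene (42.7). Over these 14 genes the mean effect of LysMCre was positive in 12 with a median of 0.42, where the type I members had 7 of 35 and -0.26. Without control mouse 2 the median of the type I members was -0.05, and that of the 14 genes is not given here. The difference between the lists was not tested. With all libraries Gbp4, an interferon-inducible GTPase, had a mean effect of LysMCre of 1.43 ± 0.37 (adjusted p = 0.136, edgeR). Over these 4 lists edgeR called 0 genes in any of the 8 comparisons. DESeq2 called Gbp4 as higher (adjusted p = 0.00726) and Rnaseh2a, a subunit of the RNase that clears RNA from DNA, as lower (adjusted p = 0.0205) for the mean effect of LysMCre.

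**Figure D4:**
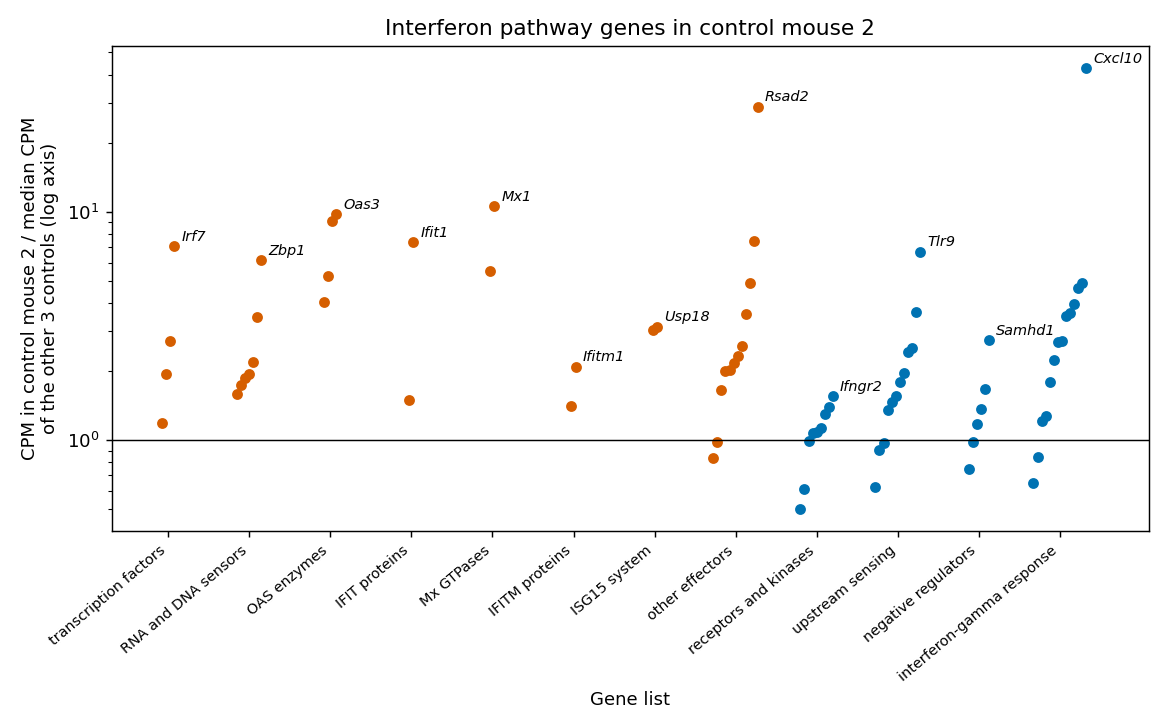
CPM in control mouse 2 divided by the median of the other 3 controls (log axis) for each tested gene, by list, with members in orange and other pathway genes in blue; the highest of each list is named. The members have a median of 2.59 and reach 28.9 (Rsad2), receptors and kinases have a median of 1.08 (0.501 to 1.56), and Cxcl10 reaches 42.7.

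Other cell markers were read beside the same mouse. All 3 tested neutrophil markers were above every other control. Csf3r, the receptor for G-CSF, gave 4.09, 29.8, 5.79 and 2.50 CPM in the 4 controls, and the list summed to 43.6 CPM in control mouse 2, 3.62 to 8.22 in the other controls, 5.25 to 14.8 in EKO, 7.28 to 35.7 in MKO and 7.88 to 12.2 CPM in EMdKO mice, with Ly6g at no more than 1 read in any library. The 35.7 CPM was in MKO mouse 3, whose mean log2 CPM over the members was 3.38, the lowest of the MKO mice. Of the 5 tested plasmacytoid dendritic cell markers 3 were above every other control in control mouse 2, with a median ratio of 1.48, Bst2, itself a member, among them. Without Bst2 the markers summed to 201 CPM in control mouse 2, 98.5 to 181 in the other controls, 142 to 206 in EKO, 56.6 to 177 in MKO and 119 to 165 CPM in EMdKO mice, most of it Tcf4 (176, 193, 92.4 and 131 CPM in control mice 1 to 4). Siglech, a defining marker of the type, read 1.86, 2.45, 0.747 and 2.75 CPM in the same mice. Some other lists also summed highest of the controls in control mouse 2. Langerhans cells gave 4786 CPM beside 1690 to 3296 in the other controls, and mast cells 266 beside 142 to 253. Sebaceous gland gave 7351 CPM beside 1565 to 4229, and endothelium 344.5 beside 211 to 287. Basal keratinocytes (4370 beside 4470 to 8057) and B and plasma cells (2.16 beside 2.50 to 3.08) summed below the other controls. The part of these cell types in the levels of control mouse 2 was not tested. Over members with the promoter motif the median ratio was 2.46 (10 genes) and over those with a window but no motif 2.10 (15 genes), and 7 and 9 of them exceeded 2 times the other controls.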

How the data were processed

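RNA of whole skin from 16 mice was turned into amplicon libraries, per the labels' protocols, with a targeted kit (Ion AmpliSeq). The authors deposited a raw read count per target, and the submitters' processing notes name HTSeq 0.6.0 and DESeq2 1.18.1. For the aligner, build and annotation, the tool and version are not given in the sources used here. Summary lines, 3.111 to 5.252% of reads, were left out. Symbols were assigned to 22562 of 23930 targets through RefSeq (GRCm38.p6, 22452) and GENCODE vM21 (110).

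The counts were fitted with edgeR 4.0.16 under R 4.3.3 (TMM, quasi-likelihood, default filter, 1 mean per group, 16 libraries), which left 13633 genes, 12 residual degrees of freedom and a biological coefficient of variation of 0.31. A call is a Benjamini-Hochberg adjusted p under 0.05 over all genes. The approximate standard error is the size of the change over the root of its F, and log2 CPM used a prior count of 2. There were 8 contrasts: each knockout against control, EMdKO against each single knockout, the interaction, and the mean effect of each Cre. Groups and mouse numbers came from the titles and genotypes. The fit was tested on simulated data before use. Those data had the same spread for every gene and no outlying mouse, so they cannot speak for members that stand out in control mouse 2.

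Members and lists were chosen with earlier results of these data known. Values in every mouse are given for the 4 members with the smallest p in each contrast and the member with the most counts in each of 8 role groups. Alternatives were DESeq2 1.42.0, RLE size factors, no filter, a stricter filter (CPM of 1 in 4 libraries), only the compared groups, the mouse number as a block, and each library left out in turn. Intervals were not computed from counts, and counting error is only part of the spread between mice. Figures were drawn with matplotlib 3.10.9 from tables made in python 3.11.15 (pandas 2.3.3, numpy 2.4.6).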

Additional observations from a re-analysis of the deposited data

Results flagged for a closer look

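In each group of 4 mice the highest and lowest CPM of every tested member was compared with its nearest neighbour by Dixon's test at its 95% level. Of 140 gene and group pairs 12 were picked out, and the mouse was control mouse 2 in 11 of the 12. Chance alone picks about 1 in 20 of independent pairs, but these pairs share the same mice. On log2 CPM 4 of the 140 were picked out, a share under 1 in 20, so the count depends on the scale. All 4 were among the 12, and 3 of them were in control mouse 2. Those 3 were Zbp1, a sensor of Z-form nucleic acid, at 71.8 CPM beside 11.0 to 12.1 CPM in the other controls, Cmpk2 at 173 CPM beside 21.4 to 27.9 CPM, and Ifi204, a DNA sensor, at 8.49 CPM beside 4.30 to 4.50 CPM. The other log2 pick was Irf7 in EMdKO mouse 3, at 25.4 CPM beside 10.8 to 12.1 CPM in the other EMdKO mice. On CPM alone control mouse 2 was also picked out for Rsad2 (221 CPM), Mx1 (36.7 CPM), Oas3 (65.9 CPM), Oasl1 (35.7 CPM), Ifit1 (144 CPM), Oas2 (130.03 CPM), Oasl2 (364 CPM) and Irf7 (115 CPM).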

How the results depend on the processing

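The count of members called by edgeR was 0 in all 8 comparisons under RLE size factors, no filter, the stricter filter and the replicate block, and in the 5 comparisons of 2 groups also with the compared groups alone. DESeq2 called 1 member in EMdKO against control (Oasl1, -2.99), 1 for the mean effect of Krt14Cre (Ifitm6, -1.06) and 2 for the mean effect of LysMCre (Ifitm6, 1.16, and Oasl1, -1.93), and the cause was not tested. With each library left out in turn the count stayed 0 except for Krt14Cre, where it ranged from 0 to 1 (Ifitm6 between -1.19 and -0.86, called without control mouse 1). The median change of the members then ranged from -0.33 to 0.56 in EKO, -0.45 to 0.25 in MKO, -0.33 to 0.29 in EMdKO and -0.54 to 0.33 for the interaction, and the end that turned the sign in each knockout came without control mouse 2. The lower end in EKO came without EKO mouse 2. Of 53 named changes, 13 reversed without control mouse 2 and 18 under any alternative, and none of the 18 was past the threshold. Rsad2 had ranges of -2.54 to 1.11 in EKO, -3.22 to 0.43 in MKO, -3.10 to 0.55 in EMdKO and -0.98 to 2.67 for the interaction, and the interaction of Mx1 of -0.55 to 1.66. In EKO, MKO and EMdKO, Ifit1 ranged from -0.70 to 1.08, -1.55 to 0.35 and -1.46 to 0.31, and Oasl2 from -0.85 to 0.72, -1.45 to 0.08 and -1.33 to 0.20. In EKO, Irf7 ranged from -0.65 to 0.89, Oas3 from -0.37 to 1.73 and Usp18 from -0.0 to 0.76. Changes close to 0 also reversed, with Ifih1 at -0.08 to 0.37 in MKO and, in EMdKO, Ifih1 at -0.07 to 0.38, Ifi35 at -0.04 to 0.21 and Ifitm6 at -0.17 to 0.50. In EKO the replicate block gave Ifit1 0.04 and Oas3 0.41, and no filter gave Oas3 0.01. Adgre1 was called by DESeq2 (0.90) and without EMdKO mouse 4 (0.98). Whether the mouse numbers, taken from the titles, pair the samples was not settled. Of 24 same-number pairs of libraries 7 correlated above 0.1, and 5 of 16 libraries correlated best with their own number. The mouse 4 libraries gave 0.61 for control with EKO, 0.574 for control with EMdKO and 0.397 for EKO with EMdKO. Against MKO mouse 4 they gave -0.543 (control), -0.356 (EKO) and -0.472 (EMdKO). The deposited file names give other numbers for MKO and EMdKO mice, and pairing by those was not tested. With the replicate block 0 members were called, and the medians were 0.02 in EKO, -0.23 in MKO, -0.14 in EMdKO, -0.22 in EMdKO against EKO, 0.01 in EMdKO against MKO, -0.04 for the interaction, -0.03 for Krt14Cre and -0.18 for LysMCre. Over all genes DESeq2 called 59, 116, 73, 9, 147, 3, 316 and 259 in the 8 comparisons, in the order just given, where edgeR called 0, 4, 4, 2, 1, 0, 126 and 6. Without a filter edgeR called 3 in EKO and 9 in EMdKO against MKO, and with the compared groups alone 1 in MKO, 10 in EMdKO and 90 in EMdKO against MKO. With a library left out these counts ranged from 0 to 127, 1 to 5, 2 to 40, 1 to 3, 1 to 95, 0 to 0, 40 to 356 and 4 to 25. Members with few reads, such as Oasl1 and Ifitm1, are limited by depth.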
